A study of Mus musculus with 2 samples.

Results

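The LMO proteins and their LDB1 and SSBP adaptors were taken by name as 8 genes, Lmo2, Lmo4, Lmo1, Ldb1, Ldb2, Ssbp2, Ssbp3 and Ssbp4. A spot belonged to the family when its gene name, or the current symbol of its RefSeq identifier, was one of these. That gave 16 of the 43379 non-control spots on each array, 1 spot per probe, and all 8 genes were among the 14314 genes measured. The arrays compared G1E-ER-GATA-1 cells given Lmo2 siRNA with the same line given control siRNA. After transfection both arms received b-estradiol for 24 h. The line is a GATA-1-null mouse line that carries GATA-1 fused to an estrogen receptor domain, so that estradiol switches GATA-1 activity on, and both arms share the missing gene, the fusion and the estradiol. It is 1 cell line, and the siRNA sequence is not analysed here.

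Each of 2 two-colour Agilent arrays carried both arms, with control RNA in Cy5 and LMO2 siRNA RNA in Cy3. The dyes were not swapped, so an effect of dye and an effect of the siRNA cannot be told apart. The labels number the arrays as replicates 1 and 2 and do not say whether the RNA came from separate cultures. The p-values therefore measure the spread between these samples, which may be technical, and the small number of arrays limits every estimate. In this bulk RNA, fewer cells of a kind and less RNA per cell cannot be told apart. The labels give the cell type as murine ES cells and the tissue as erythroid. The erythroid markers measured here, 7 of the 8 listed, were well above background in both channels on both arrays, with signals in the LMO2 siRNA channel from 59.5 units to 65236 units, the latter for the alpha-globin gene Hba-a1, whose probe was saturated. Of 6 pluripotency markers, 3 were measured, with signals of 51.3 to 126 in the LMO2 siRNA channel and 61.6 to 149 in the control channel, and Nanog, Sox2 and Zfp42 did not pass the filter on dim probes.

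LMO proteins consist almost wholly of a pair of LIM domains and bind no DNA themselves. They bridge DNA-binding factors, in red cell precursors a basic helix-loop-helix pair of TAL1 or LYL1 with an E protein and a GATA factor, to LDB1. LDB1 binds LIM domains at one end, joins other LDB1 molecules at the other, and by this brings distant enhancers to promoters such as those of the globin genes. SSBP proteins bind LDB1 and protect it, and the LMO2 bound to it, from breakdown in the proteasome. LMO2 and LMO4 compete for the same LIM-binding stretch of LDB1.

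The probes carry the readout. The sequences that follow are those of probes of Lmo2, Lmo4, Ldb1, Ssbp2 and Ssbp3, in lower case and 5′ to 3′ as the array file gives them. Lmo1, Ldb2 and Ssbp4 also differed between ways of processing, and their sequences are not printed. Each probe was 60 bases long. The Lmo2 probe and 1 Ldb1 probe held no stop codon in any of the 3 forward reading frames and are given whole, and the others by their first 30 bases.
Lmo2 A_51_P223686: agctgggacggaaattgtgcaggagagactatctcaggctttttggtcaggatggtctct
Lmo4 A_51_P394190: attgtatctctgtaaaatacaatgtatgta
Lmo4 A_52_P153864: tcatcaatggccatttgaattcacttcaga
Lmo4 A_52_P330314: aatggtttgatagactgtcgcacttgaatg
Ldb1 A_51_P384754: gagcagaagacggaataaagagactgggcg
Ldb1 A_51_P384756: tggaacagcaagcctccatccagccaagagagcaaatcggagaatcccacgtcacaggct
Ssbp2 A_51_P408932: cgtgcattgacccacaggacattgtaagat
Ssbp2 A_52_P557098: cacttggtaacaaagtgtcattactcggtt
Ssbp2 A_52_P522977: gaggattctccctttcctgtgggactgtaa
Ssbp3 A_51_P109668: ggaacattgtagctgtttctgtgttttttc
Ssbp3 A_52_P627863: tgcctagtcctgcagattcaacaaattcca
Over all 16 family probes the GC content ran from 33.3% to 55.0%. The longest stretch shared by probes of 1 gene was 12 bases, between the Ldb1 probes, and the longest shared by probes of different members was 8 bases.

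Ratios are LMO2 siRNA over control on the log2 scale after background correction and loess normalization, which sets the trend of each array to 0 at every brightness. A gene is read from its brightest probe, and the test is limma's moderated test of the mean over both arrays with Benjamini-Hochberg adjustment over all 14314 genes. A gene is called at an adjusted p under 0.05. The words rose and fell are kept for genes called the same way in 3 sets of values: the loess values, values whose signals were divided by the scanner's own factor for position on the array before loess, and the scanner's processed signals. Genes with a saturated probe are left out of that rule. Of all genes, 24.5% were called higher and 27.4% lower, and 5.44% rose and 2.56% fell. The processed signals gave 976 genes higher and 489 lower, where the loess values gave 3509 and 3923. Median centring of each array in place of loess gave 425 higher and 9239 lower and moved the median of all genes from -0.02 to -0.40. It leaves a trend with brightness in place, and bright and dim probes moved differently. Ssbp3, which is bright, went from 0.01 to -0.74, and Lmo1, which is dim, from 0.12 to 0.22. A distance from the median of all genes in that setting thus also holds the brightness of the probe.

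Lmo2 and Ssbp2 fell and Lmo4 rose in the LMO2 siRNA arm, while with median centring of position-corrected signals Lmo4 read -0.15 (adjusted p = 0.19, limma), 0.28 above the median of all genes. Ldb1 was called lower, but not after division by the scanner's position factor. The call was kept by 2 other corrections for position, which left most of the spread between copies of bright probes. Lmo1, Ldb2, Ssbp3 and Ssbp4 were not called in the loess values. Thus 1 of 8 members was called higher and 3 lower, beside the 24.5% and 27.4% of all genes. With position correction 1 member was called higher and 3 lower, beside 20.3% and 17.9% of all genes, and Ssbp3 took the place of Ldb1 among the lower ones. Processed signals called 1 higher and 2 lower, beside 6.82% and 3.42%. By the rule of 3 sets 1 member rose and 2 fell, beside 5.44% and 2.56%. The lower counts include the target of the siRNA itself, and no test was made of the family as a group. The median log2 ratio of the members was -0.03, beside -0.02 for all genes, and -0.12 beside -0.01 with position correction.

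**Figure D1:**
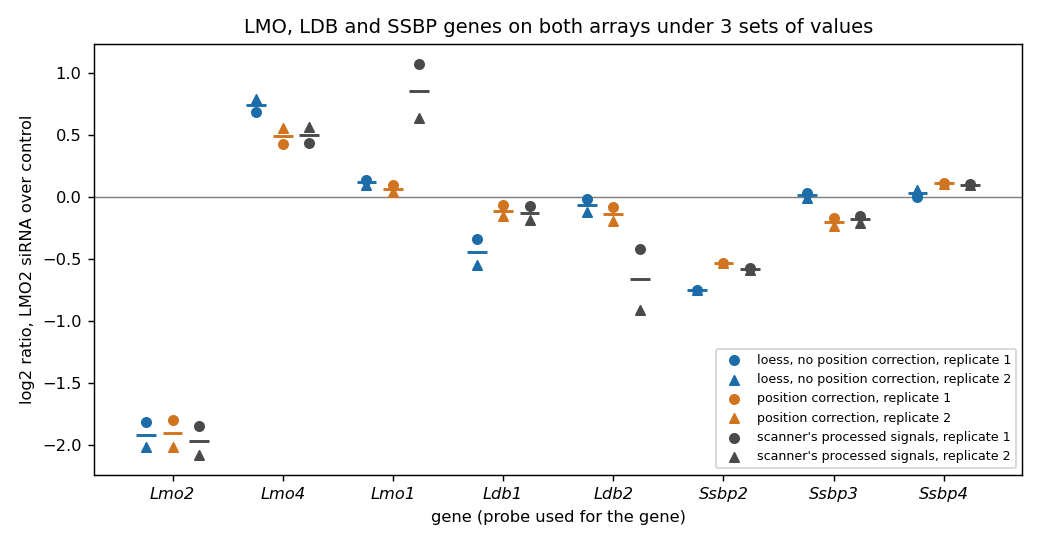
Log2 ratio of LMO2 siRNA over control (y axis) for the probe that stands for each of the 8 genes (x axis), with circles for replicate 1, triangles for replicate 2, short lines for their mean, and colours for the 3 sets of values. Lmo2 sat near -1.9 and Ssbp2 between -0.75 and -0.53 in all 3 sets, Lmo4 between 0.43 and 0.79 in these sets but at -0.15 with median centring of position-corrected signals, and Ldb1 moved from -0.44 to -0.11 with position correction.

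The targeted gene was read first. The Lmo2 probe gave 1254 intensity units on replicate 1 and 1138 on replicate 2 in the LMO2 siRNA channel, and 8336 and 8571 in the control channel. The control channel was thus brighter by 6.65 and 7.53 times before normalization, where the median spot above background in both channels was brighter by 1.60 and 1.62 times. The log2 ratios were -1.82 and -2.02, a mean of -1.92 ± 0.14 (SD, n = 2), which is 3.77-fold lower (adjusted p = 3.6e-21, limma). The 95% interval of the mean ran from -2.04 to -1.80. Both arrays ran the way the labels state, and no other gene of the 14314 had a lower mean. The spot lies at row 223 near the middle of the array, and the position-corrected mean was -1.90 (adjusted p = 5.4e-08) and the processed mean -1.97 (adjusted p = 0.024). Lmo2 signal with LMO2 siRNA was 0.265 of control in the loess values, 0.267 with position correction and 0.256 in processed signals, so the 3 sets of values gave nearly the same remaining share. Median centring gave a lower log2 ratio of -2.57, with or without position correction, on a scale where the median gene read -0.42 and -0.40.

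The genes whose ratios on both arrays lay nearest to those of Lmo2 were Slc52a3, a riboflavin transporter gene, Pfkfb4, a gene for an enzyme of fructose 2,6-bisphosphate turnover, and Erfe, which encodes erythroferrone. Their Euclidean distances from Lmo2 over the 2 arrays were 0.56, 0.93 and 1.13 log2 units. Slc52a3 read -1.50 and -1.55, so the nearest gene was still less far below 0 than Lmo2 on each array.

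Lmo4, the family member that shares the LDB1 surface with LMO2 and is widely expressed, was read by 3 probes. The brightest, A_51_P394190, gave 1610 and 1502 units with LMO2 siRNA against 1820 and 1544 in control, nearly equal signals on arrays where the control channel was brighter for most spots. Its log2 ratios were 0.69 and 0.79, a mean of 0.74 ± 0.08 (SD, n = 2), 1.67-fold higher (adjusted p = 5.3e-12, limma; interval 0.62 to 0.86). This spot lies at row 493, near the end of the array where ratios ran high. With position correction the mean was 0.49 (adjusted p = 1.0e-04), 1.41-fold, and in processed signals 0.50 (adjusted p = 0.047). The call of the gene thus held in these 3 sets, with a smaller size in the corrected ones, and narrowly in processed signals. In the fit over probes the processed value of this probe was not called (adjusted p over probes 0.062, limma). Median centring without position correction gave 0.13 (adjusted p = 0.26).

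The other Lmo4 probes lie near the opposite end of the array, at rows 95 and 89. Probe A_52_P153864 gave 162 and 149 units with LMO2 siRNA against 209 and 198 in control. Its log2 ratio was 0.28 ± 0.05 (SD, n = 2; adjusted p over probes 6.8e-04, limma), 0.46 with position correction and 0.68 in processed signals, but -0.047 with median centring. Probe A_52_P330314 was dimmer, with 74.2 and 75.6 units against 91.0 and 91.1. It read 0.19 ± 0.0038 (SD, n = 2; adjusted p over probes 0.012, limma), 0.28 with position correction and 0.81 in processed signals. All 3 Lmo4 probes were thus called higher in the loess values and after position correction. The gap between the 2 brighter probes shrank from 0.74 against 0.28 to 0.49 against 0.46 once position was corrected.

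Lmo1, a paralog best known from T-cell leukaemia and the nervous system, was dim. Its probe gave 56.0 and 50.6 units with LMO2 siRNA and 65.6 and 57.8 in control, with local backgrounds of 38.5 to 47 units. The control channel was not well above background on either array, so the control level behind the ratio is uncertain. The probe passed the filter only through its LMO2 siRNA channel, and a higher call of Lmo1 in any setting carries that selection. The measured ratio was 0.12 ± 0.03 (SD, n = 2; adjusted p = 0.080, limma) and 0.07 with position correction (adjusted p = 0.35). Processed signals, which differ in background, position and dye treatment together, read 0.86 (adjusted p = 0.053), and a smaller normexp offset of 10 alone read 0.25 (adjusted p = 0.0046).

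**Figure D2:**
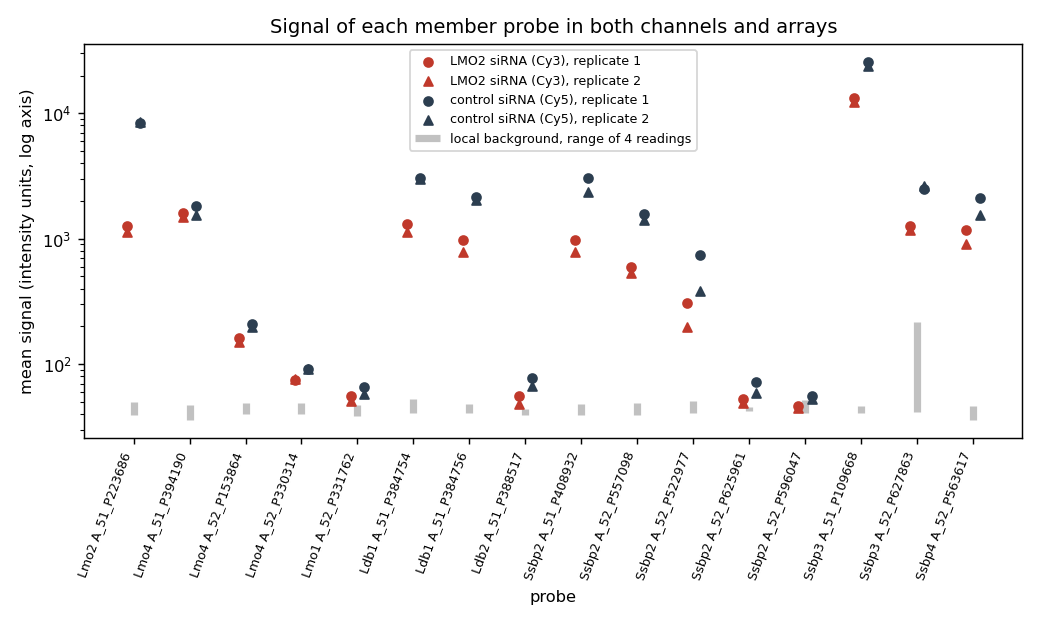
Mean signal of each of the 16 family probes (x axis) in intensity units (y axis, log scale), red for the LMO2 siRNA channel and dark blue for control, with circles and triangles for replicates 1 and 2 and grey bars for the range of local background over both channels and arrays. The Lmo2 probe has the widest gap between channels, the Ssbp3 probe A_51_P109668 is the brightest at 12271 to 25696 units, and the probes of Lmo1 and Ldb2 and 2 probes of Ssbp2 lie close to background.

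Ldb1, the dimerizing adaptor of the complex, was read by 2 probes that lie side by side at rows 42 and 41. Probe A_51_P384754 gave 1318 and 1135 units with LMO2 siRNA against 3071 and 3003 in control. The log2 ratios were -0.34 and -0.55, a mean of -0.44 ± 0.15 (SD, n = 2), 1.36-fold lower (adjusted p = 2.8e-07, limma). Probe A_51_P384756 gave 973 and 778 units against 2139 and 2046, and read -0.42 ± 0.20. Both probes were lower on both arrays, but they share a place on the array where the scanner's position factor favoured the control channel by 0.26 log2 units on replicate 1 and 0.35 on replicate 2. With that factor divided out, the first probe read -0.11 (adjusted p = 0.13; interval -0.23 to 0.01) and the second -0.09 (adjusted p over probes 0.30, limma). Processed signals gave -0.13 (adjusted p = 0.24) for the gene. The corrected interval allows a level from 0.23 log2 units below to 0.01 above control, so a small decrease of Ldb1 mRNA and no difference are both within it. Other settings kept Ldb1 lower. Subtracting a running median over rows gave -0.38 (adjusted p = 0.0021, limma) and subtracting the median of neighbouring spots gave -0.37 (adjusted p = 3.6e-04). At the first probe the neighbourhood median was -0.09 on replicate 1 and -0.05 on replicate 2, smaller than the scanner's factor. A kept call there does not show that the drift was removed. Median centring gave -1.06 (adjusted p = 1.5e-24), and -0.74 with position-corrected signals (adjusted p = 9.0e-13). In these settings 9239 and 9440 of all 14314 genes were called lower. The values lie 0.66 and 0.32 below the median of all genes. That median is no baseline for a bright probe, because median centring leaves a trend with brightness in place. The size and the call of Ldb1 thus depended on the setting, while the sign did not in any setting run.

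Ldb2, the second LDB gene of the mouse, was near background. Its probe gave 55.7 and 48.2 units with LMO2 siRNA, well above background on 1 of the 2 arrays, and 77.7 and 67.2 in control. The log2 ratio was -0.07 ± 0.08 (SD, n = 2; adjusted p = 0.34, limma; interval -0.18 to 0.05), -0.14 with position correction (adjusted p = 0.074) and -0.66 in processed signals (adjusted p = 0.079). The sign was negative in each set, and the test was passed in none of the 3.

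Ssbp2, which encodes an LDB1-stabilising protein of blood progenitors, fell on its brightest probe. Probe A_51_P408932 gave 983 and 778 units with LMO2 siRNA against 3035 and 2353 in control. The log2 ratio was -0.75 on both arrays, a mean of -0.75 ± 0.0033 (SD, n = 2), 1.68-fold lower (adjusted p = 2.9e-12, limma; interval -0.86 to -0.63). Only 69 of the 14314 genes had a lower mean. Median centring gave -1.35, and -1.16 with position-corrected signals. With position correction the mean was -0.53 (adjusted p = 3.7e-05), 1.45-fold lower, and in processed signals -0.58 (adjusted p = 0.035). The small SD shows how alike the arrays were and does not contain the drift with position, which both arrays share.

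A second Ssbp2 probe, A_52_P557098, lies farther along at row 163 and gave 598 and 536 units against 1568 and 1414. It read -0.56 ± 0.01 (SD, n = 2; adjusted p over probes 8.2e-07, limma), -0.46 with position correction (adjusted p over probes 1.3e-04) and -0.52 in processed signals (adjusted p over probes 0.055). These probes lay close together after position correction, at -0.53 and -0.46. Another probe, A_52_P522977 at row 30, gave 306 and 197 units with LMO2 siRNA against 740 and 384 in control, so its control signal dropped between the arrays far more than that of the other Ssbp2 probes. It read -0.47 and -0.21, and with position correction -0.21 and 0.14, a mean of -0.04 (adjusted p over probes 0.74, limma). Without position correction its mean was -0.34 (adjusted p over probes 4.3e-04, limma), and subtracting a running median over rows left -0.26 (adjusted p over probes 0.019). The call of this probe thus held with the row correction and was lost with the scanner's factor. The remaining probes, A_52_P625961 and A_52_P596047, gave 44.9 to 53.0 units with LMO2 siRNA and 52.7 to 71.7 in control and did not pass the filter.

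Ssbp3 was the brightest family member by signal on its own probe, although signals of different probes cannot be ranked as transcript levels. Probe A_51_P109668 gave 13156 and 12271 units with LMO2 siRNA against 25696 and 23983 in control. The log2 ratios were 0.04 and -0.01, a mean of 0.01 ± 0.03 (SD, n = 2; adjusted p = 0.85, limma; interval -0.10 to 0.13). The spot lies at row 426, where the scanner's position factor favoured the LMO2 siRNA channel by 0.24 and 0.27 log2 units. With the factor divided out the mean was -0.20 (adjusted p = 0.013; interval -0.32 to -0.09), and in processed signals -0.18 (adjusted p = 0.14). Ssbp3 was thus called lower in 1 of the 3 sets and does not meet the rule for fell.

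Its dimmer probe, A_52_P627863 at row 247, gave 1262 and 1178 units against 2472 and 2616. It read -0.10 and -0.48, a mean of -0.29 ± 0.27 (SD, n = 2; adjusted p over probes 0.0040, limma), and -0.23 with position correction (adjusted p over probes 0.045). Local background beside this spot was 216 units in the LMO2 siRNA channel and 136 in control on replicate 2, against 41.5 and 44.5 on replicate 1, and its part in the lower ratio of replicate 2 was not tested. With position corrected, the Ssbp3 probes had means of -0.20 and -0.23, but A_52_P627863 read -0.05 on replicate 1 and -0.41 on replicate 2.

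Ssbp4, the last gene of this SSBP group, gave 1169 and 908 units with LMO2 siRNA against 2111 and 1551 in control. Its log2 ratios of 0.00 and 0.06 gave a mean of 0.03 ± 0.04 (SD, n = 2; adjusted p = 0.69, limma; interval -0.09 to 0.15). Position correction gave 0.11 (adjusted p = 0.12) and processed signals 0.10 (adjusted p = 0.29). The interval holds no decrease of the size seen for Ssbp2, whose own interval ended at -0.63. The difference between these genes was not tested itself.

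**Figure D3:**
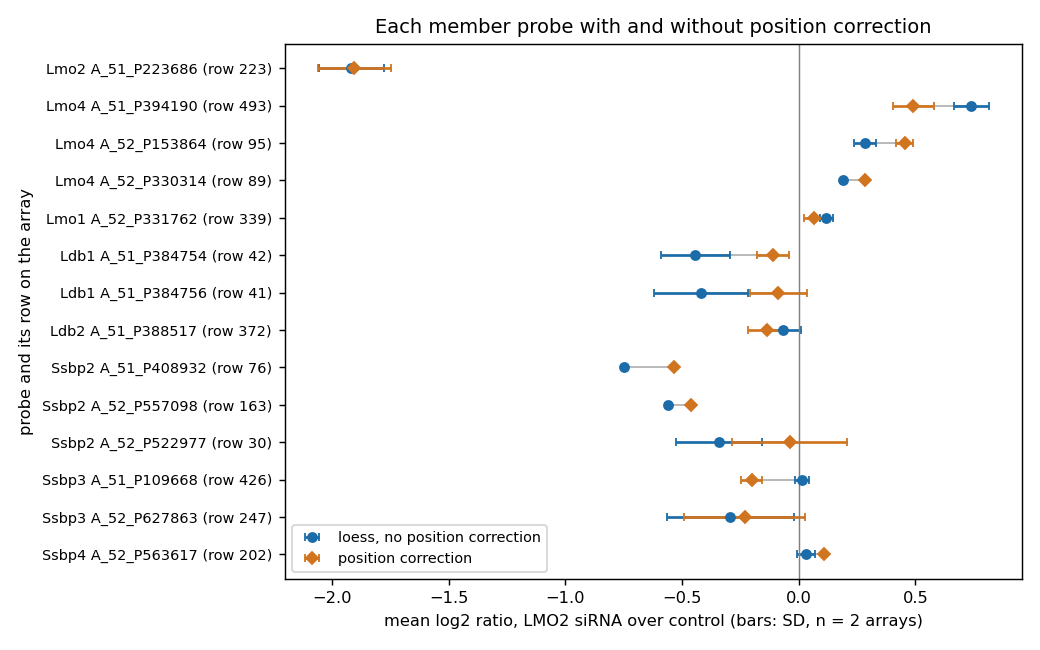
Mean log2 ratio of LMO2 siRNA over control (x axis) for the 14 family probes that passed the filter, each with its row on the array (y axis), without position correction (circles) and with it (diamonds); bars are SD over the 2 arrays. Both Ldb1 probes and the Ssbp2 probe at row 30 move to near 0, the 2 brighter Lmo4 probes come together at 0.49 and 0.46 (with median centring of position-corrected signals they read -0.15 and 0.14), and Lmo2 stays at -1.90.

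At the probe level, 3 of the 14 family probes that passed were called higher and 7 lower, beside 21.6% and 24.4% of all 24735 probes. The 3 higher ones were the Lmo4 probes. The 7 lower ones were the Lmo2 probe, both Ldb1 probes, 3 Ssbp2 probes and the dimmer Ssbp3 probe. With position correction the Ldb1 probes and 1 Ssbp2 probe were no longer called, while the brighter Ssbp3 probe was called lower (adjusted p over probes 0.018, limma).

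Ratios drifted along the array, and the drift touches each member according to its row. In the first rows the median log2 ratio of spots well above background was -0.18 on replicate 1 and -0.21 on replicate 2, and in the last rows it was 0.12 and 0.10. With position correction the medians in the first rows were 0.0006 and 0.08. The drift was larger between copies of bright probes. Among the 51 probes printed in 10 spots with a mean log2 brightness over 10, the median SD between spots of 1 probe was 0.20 on replicate 1 and 0.22 on replicate 2, and 0.04 on both with position correction. The scanner fitted its position factor on replicate probes, all 51 of these among them, so that drop is not an independent check. A correction made for this work, which subtracts the median ratio of spots within 10 rows and 10 columns, left 0.15 and 0.19 and moved Ldb1, Lmo4 and Ssbp2 less, with Ldb1 at -0.37, Lmo4 at 0.66 and Ssbp2 at -0.71. The running median over rows left 0.16 and 0.19.

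**Figure D4:**
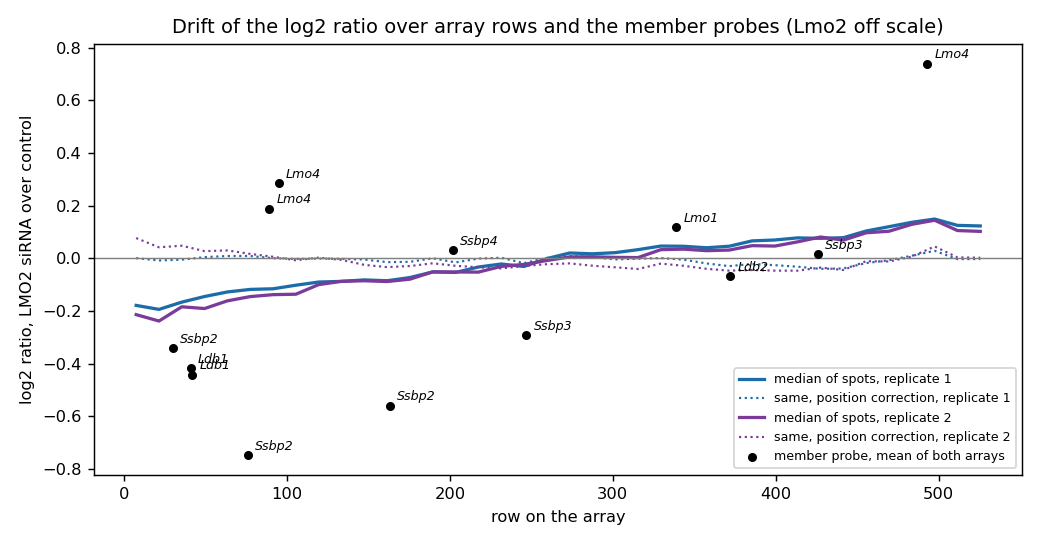
Median log2 ratio of LMO2 siRNA over control (y axis) of spots well above background in bands of array rows (x axis) on each array, solid without and dotted with position correction, with the uncorrected mean of each family probe as a dot; Lmo2, at -1.92, is off scale. The medians climb from about -0.2 in the first rows to above 0.1 in the last, and the Ldb1 probes and 2 Ssbp2 probes lie in the low first rows, while the Lmo4 probe at 0.74 (-0.15 with median centring of position-corrected signals) lies in the high last rows.

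The other partners of LMO2 in red cell precursors were measured for all 16 genes listed. Of these, 6 were called higher, 5 lower and 5 neither, beside 24.5% and 27.4% of all genes called higher and lower, and the median was 0.04. By the rule of 3 sets 3 rose, beside 5.44% of all genes. The lowest ratio in the list was that of Gfi1b, a gene for a repressor of red cell precursors, at -0.83 ± 0.06 (SD, n = 2; adjusted p = 3.6e-13, limma), -0.43 with position correction (adjusted p = 1.5e-04) and -0.41 in processed signals (adjusted p = 0.051). Among its DNA-binding members, Lyl1, a helix-loop-helix factor that can take the place of TAL1, rose by 1.60 ± 0.14 (SD, n = 2; adjusted p = 2.3e-19, limma), with 1.51 on replicate 1 and 1.70 on replicate 2, and stayed at 0.99 with median centring. Gata2, the GATA factor of progenitors, rose by 0.43 ± 0.06, and read -0.20 with median centring. Cbfb, the partner subunit of RUNX factors, also rose (0.62 ± 0.03) and read 0.03 with median centring and -0.14 with median centring of position-corrected signals. The median of all genes read -0.40 and -0.42 in these settings.

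Tal1 was called higher at 0.38 ± 0.04 and read 0.16 with position correction (adjusted p = 0.038, limma) and 0.18 in processed signals (adjusted p = 0.14). With median centring Tal1 read -0.36, where the median of all genes read -0.40. Gata1, which the cells hold as the estradiol-regulated fusion, had a called decrease of -0.24 ± 0.12 in the loess values, and position correction gave -0.13 (adjusted p = 0.10, limma). The E protein genes differed in their values, with Tcf12 called lower at -0.59 and Tcf3 at 0.07 not called. Rlim, whose product marks LDB1 for breakdown, read 0.08 (adjusted p = 0.27, limma) and -0.10 with position correction. Of 4 genes for LMO4-binding proteins, 3 were called lower, beside 27.4% of all genes, and Brca1, a DNA repair gene, fell by 0.31 ± 0.04 (SD, n = 2), beside 2.56% of all genes that fell. With position correction Deaf1 (-0.13, adjusted p = 0.071, limma) and Rbbp8 (-0.07, adjusted p = 0.36) were no longer called. The median of these 4 genes was -0.30, and -0.10 with position correction.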

How the data were processed

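Total RNA of both arms was hybridised to 2 two-colour arrays. The deposited scanner files hold each spot's mean signal, local background and processed signal as intensity, made with Agilent Feature Extraction 9.1.3.1, per the file headers. They also hold a multiplicative position ratio per channel and log10 ratios of red over green, per the file headers, and the deposited series table repeats those log10 values with a median of 0 on each array. No source used here names a genome build.

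Signals were corrected with normexp (offset 50) and loess in limma 3.58.1 (R 4.3.3), with control spots at weight 0. Spots of a probe were averaged. Probes entered when, on each array, 1 channel or both exceeded background by the scanner's own flag (24735 of 41174 probes), and the brightest of these stands for a gene. Names came from RefSeq identifiers through a GRCm38.p6 gene table (24844 probes) or the file's symbol (9636); 6694 probes had no name. lmFit and eBayes had 1 residual and 28 prior degrees of freedom, so most of the variance behind a p-value is shared between genes. Processed signals had 2.2 prior degrees of freedom, so a missed threshold there is weak evidence. Position correction divides the background-corrected signal by the scanner's ratio before loess. The code was tested on simulated data.

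Named genes were the 8 members, the LMO2 partners Tal1, Lyl1, Tcf3, Tcf12, Gata1 and Gata2, the 3 genes nearest to Lmo2 and, from other lists, up to 4 genes that met the rule of 3 sets. Others, such as Gfi1b, Rlim, Deaf1 and the cell type markers that were not called, were named after their values were seen. Members and lists were chosen with earlier results of these data known. Alternatives covered background, normalization, position, filters, probe summary, prior, threshold and each array alone.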

Additional observations from a re-analysis of the deposited data

How the results depend on the processing

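Lmo2 and Ssbp2 kept their direction and their call under all 15 alternatives, which are not independent checks. The changes of filter, prior and threshold left the Lmo2 log2 ratio at -1.92. The series values nearly repeat the processed signals, with Lmo2 at -1.9649 and -1.9651. Under either median centring most genes were called lower, so a kept lower call there adds little. Without replicate 1 or replicate 2, Lmo2 read -2.02 to -1.82, with no test from 1 array. Where 3509 genes were called higher and 3923 lower, processed signals gave 976 and 489, the deposited series values 898 and 425, a test against a 1.2-fold change 1022 and 848, median centring 425 and 9239, and median centring of position-corrected signals 420 and 9440. Position correction gave 2567 lower. The members called higher numbered 2 with a normexp offset of 10, without background correction and with a trended robust prior, where Lmo1 joined Lmo4, and 0 with median centring of position-corrected signals. In the settings with 2, genes called higher numbered 3713, 3675 and 3574 of 14314. With median centring the 1 member called higher was Lmo1 (0.22) and not Lmo4 (0.13). The Lmo1 probe passed the filter only through its LMO2 siRNA channel, so its calls in these settings are no support for a higher level. With either median centring, 5 of the 8 members were called lower, beside 9239 and 9440 of all 14314 genes. The direction of Ssbp3 (0.01) turned to -0.20 with position correction, -0.0095 with the neighbourhood correction, -0.18 in processed signals and in the series table, -0.14 as the mean of its probes, -0.74 with median centring and -0.97 with median centring of position-corrected signals. Ssbp4 turned to -0.57 and -0.50 with these last 2 settings, Lmo4 to -0.15 with the last, and its probe A_52_P153864 to -0.047 with median centring. The median of all genes read -0.40 with median centring and -0.42 with median centring of position-corrected signals. Ldb1 lost its call with position correction (-0.11), processed signals (-0.13) and the series table (-0.13), and kept it with the row (-0.38) and neighbourhood (-0.37) corrections. Apart from the drift with rows, the cause of these shifts was not tested. The neighbourhood correction and the median centring of position-corrected signals were chosen after seeing the data. Each array holds both arms, so the test of its log2 ratios against 0 is already paired, and no further pairing was used. Signal over background limits Lmo1 and Ldb2.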

Other observations

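Among other genes with LIM domains, 34 of the 53 listed were measured, and 10 were called higher, 9 lower and 15 neither, beside 24.5% and 27.4% of all genes called higher and lower. The median was 0.0042, beside -0.02 for all genes. By the rule of 3 sets, 5 rose and 1 fell, beside 5.44% and 2.56% of all genes, and the gene that fell was Ablim3 (-0.33 ± 0.09). Ablim3 read -0.35 with position correction but -2.99 in processed signals, where it passed narrowly (adjusted p = 0.0496, limma). Its size thus depended on the set of values. Mical1, which encodes an actin-oxidising enzyme, rose by 1.48 ± 0.01 (SD, n = 2) and read 0.81 with median centring. Crip1, a gene for a small protein with a single LIM domain, rose by 0.93 ± 0.12 and its relative Crip2 by 0.53 ± 0.04, and they read 0.30 and 0.24 with median centring. Lasp1, a gene for an actin-binding LIM protein, rose by 0.72 ± 0.03, and read 0.0063 with median centring and -0.10 with median centring of position-corrected signals. The median of all genes read -0.40 and -0.42 there. Of the 12 LIM-homeodomain genes, whose products also bind LDB1, 4 were measured, none brighter than 115 units in either channel, and 1 was called lower without meeting the rule.

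Of 8 genes for other single-stranded DNA-binding proteins outside the LDB1-binding group, 1 was called higher, 5 lower and 2 neither, with a median of -0.19, beside 24.5% and 27.4% of all genes called higher and lower. None of the 5 met the rule for fell, and with position correction Rpa1 (-0.17) and Rpa2 (-0.29) were still called by limma, while Nabp2 turned to 0.10. Nabp1, a subunit gene of a DNA damage sensor complex, rose by 1.08 ± 0.12 (SD, n = 2) and read 0.52 with median centring.

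Markers of other blood cells differed in brightness. Of 7 myeloid markers, 6 were measured at 45.5 to 121 units with LMO2 siRNA. The 4 megakaryocyte markers measured reached 364 units with LMO2 siRNA and 770 in control, and the 3 lymphoid ones 149 and 336. The 3 mast cell markers measured were dim, at 64.6 to 87.9 units with LMO2 siRNA and 80.1 to 143 in control. Among them Cpa3 rose by 0.37 ± 0.13 while Prss34 read -0.06, and -0.18 with position correction (adjusted p = 0.027, limma). Fcer1a read -0.03, and -0.13 with position correction. The megakaryocyte marker Gp9 fell by 0.31 ± 0.05 and the T-cell marker Cd3e fell by 0.34 ± 0.14 (SD, n = 2). The other megakaryocyte markers were not called: Itga2b read 0.12 (0.20 with position correction, adjusted p = 0.011, limma), Pf4 -0.13 (0.18 with position correction) and Gp1bb 0.02. The part of such cells in the values of the LMO and SSBP genes was not tested.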
